A study of Mus musculus with 2 samples.

Results

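Khk, Tkfc, G6pc, Fbp1, Pck1 and Mlxipl, which are genes of fructose breakdown, gluconeogenesis and their regulation by sugar, were followed in single cells of mouse small intestinal epithelium. The members were the rows whose gene symbol is one of these names, and all 6 of the 6 listed genes were found among 55357 genes. The study profiled crypt-enriched epithelium to ask how adiponectin made by gut epithelial cells acts on crypt cells, and the readout used here is the UMI (unique molecular identifier) count of each gene in each droplet barcode. One genotype was Adipfl/fl, in which both copies of the adiponectin gene are flanked by loxP sites but intact, and it is called the control library. The other was Adipfl/flpVilli-CreT, which carries the same floxed alleles together with Cre recombinase driven by the villin promoter, a promoter active throughout the gut epithelium, and it is called the Cre library. Both came from 8-week-old male littermates pooled before capture with droplet 3′ chemistry, and each genotype has 1 library. The spread between mice is therefore not visible, no test between genotypes is possible, no p-value is given, and every interval covers counting error only.

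Dietary fructose enters enterocytes through the transporter Slc2a5 and is phosphorylated by ketohexokinase, and triokinase later returns its carbon to the triose phosphates. Gluconeogenesis runs the glycolytic pathway backwards from oxaloacetate to glucose and is best known from liver and kidney, although the small intestine also makes its enzymes. The transcription factor ChREBP, encoded by Mlxipl, is activated by sugar metabolites and binds with its partner Mlx near genes of sugar and fat metabolism.

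Khk encodes ketohexokinase, the first committed enzyme of fructose breakdown, and lies on chr5:30921431-30931248, forward strand (ENSMUSG00000029162; positions from GENCODE M21 on GRCm38). Tkfc encodes triokinase, which phosphorylates glyceraldehyde, on chr19:10587791-10605654, reverse strand (ENSMUSG00000034371), and its span overlaps Cyb561a3 and Ddb1 on the opposite strand. G6pc encodes the catalytic subunit of glucose-6-phosphatase, the last step of gluconeogenesis, on chr11:101367561-101377903, forward strand (ENSMUSG00000078650). Fbp1 encodes fructose-1,6-bisphosphatase 1, the enzyme that reverses phosphofructokinase, on chr13:62864753-62888282, reverse strand (ENSMUSG00000069805). Pck1 encodes cytosolic phosphoenolpyruvate carboxykinase, which opens gluconeogenesis, on chr2:173153048-173159273, forward strand (ENSMUSG00000027513). Mlxipl lies on chr5:135089890-135138382, forward strand (ENSMUSG00000005373), and its span overlaps the antisense gene Gm43500.

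Short stretches upstream of the transcription start are shown for the 4 members whose 250 bases before a RefSeq start (GRCm38.p6) held a searched motif, because regulation of these genes is usually discussed through such motifs. All are 30 bases long on the forward strand, 5′ to 3′, with the matched letters in capitals.
Khk, E-box and HNF1 core, chr5:30921482-30921511: ccccgtCACGTGacaccGTTAATctggcgc
G6pc, HNF1 core, chr11:101367483-101367512: cagtgtgcccaaGTTAATaattggctctgc
G6pc, TATA box, chr11:101367675-101367704: gaatccagggcaTATAAAacaggggcaagg
Pck1, HNF1 core on the opposite strand, chr2:173152869-173152898: ctcccaacattcATTAACaaccacaagttc
Pck1, CRE core, chr2:173152970-173152999: ggcctgccccttACGTCAgaggcgagcctc
Mlxipl, E-box before its second RefSeq start, chr5:135089780-135089809: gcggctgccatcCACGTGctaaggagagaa
Both strands were searched for the E-box CACGTG, the core of the HNF1 site as GTTAAT, the core of the cyclic AMP response element (CRE) as ACGTCA, the TATA box as TATAAA, and the HNF4 site as CAAAGTCCA, and no matches overlapped in these windows. Of 32851 RefSeq windows of the same length, the E-box was in 6.02%, the HNF1 core in 6.43%, the CRE core in 6.47%, the TATA box in 12.4% and the HNF4 site in 0.384%. The E-box began 71 bases before the Khk start and 98 bases before the second Mlxipl start. The HNF1 core began 221 bases before the G6pc start, 60 bases before the Khk start and, on the opposite strand, 192 bases before the Pck1 start. The TATA box began 29 bases before the G6pc start and the CRE core 91 bases before the Pck1 start. The windows of Tkfc and Fbp1 held none of these letters, and the HNF4 site was in no member's window. The Khk stretch and the G6pc TATA stretch lie within an exon of another annotated transcript, and the others lie outside annotated genes. Such a match is a description of letters and not evidence of binding.

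The libraries held 42150623 UMIs in 9791 barcodes (control) and 63370798 UMIs in 11838 barcodes (Cre). Barcodes with more than 500 detected genes and under 25% mitochondrial UMIs were kept as cells, which left 3069 and 5555 cells with medians of 4838 and 4749 UMIs per cell. The libraries shared 31 barcode sequences, 3 of them among kept cells. Adipoq, the deleted gene, had 1 UMI over all control barcodes, 0 over all Cre barcodes and 0 in the kept cells of both libraries, so it cannot check the genotype labels. Cells were clustered without the pathway genes and named from marker lists, and epithelial and T cell markers were present in both libraries. Levels are given as CPM, the UMIs of a gene per 1000000 UMIs, taken over each class as a whole. The crypt classes were stem-like (43 control and 124 Cre cells) and TA-like, or transit-amplifying (43 and 94). A further crypt sub-cluster of 0 control and 57 Cre cells carried 12 cycling markers beside markers of other classes. It stayed unnamed and is outside every crypt value. Enterocyte classes were villus bottom-like (226 and 442), mid-villus-like (1186 and 1806) and villus tip-like (591 and 1728), and the last pair together are called mature villus. Cluster 5 made up the villus bottom-like class, clusters 8, 7, 4 and 0 the mid-villus-like class and clusters 1, 2 and 3 the villus tip-like class, in order of their share of tip markers from bottom to tip. Cluster 8 carried 4 villus bottom and 4 mid-villus markers, and its leading genes settled its name. Other classes were goblet-like (225 and 407), tuft-like (76 and 69), enteroendocrine-like (56 and 57), T cell-like (364 and 441) and B or plasma-like (30 and 29). An unnamed cluster 12 (61 and 155) was led by Fgf15, Nr1d1, Mlxipl and Lypd8l. Clusters 11 (107 and 114) and 17 (61 and 32) were also unnamed and are in no class.

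Among the crypt and enterocyte classes, all 6 members were lowest in the crypt or at the villus tip, and 4 of them, Khk, Tkfc, G6pc and Pck1, were at least 2-fold higher in mature villus than in crypt cells in both libraries. That compares with 17.8% of the 7186 genes tested in the control library and 17.9% of 7138 in the Cre library, where a gene was tested at 20 CPM or more in the higher class, a minimum that all 6 members passed. No member was at least 2-fold lower, against 41.9% of genes in the control and 42.4% in the Cre library. Khk, Tkfc and G6pc were highest in the villus bottom or mid-villus classes, Fbp1 was the one enzyme whose crypt level was close to its villus level, and Mlxipl had the lowest ratio of mature villus over crypt among the 5 members other than Fbp1. Between the genotypes no member reached a 1.5-fold difference in mature villus cells, where 1.22% of 5089 genes were higher and 0.924% lower in the Cre library. Among the 4 members tested in villus tip-like cells, Pck1 alone passed it, where 3.19% of 4046 genes were higher and 1.88% lower.

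**Figure D1:**
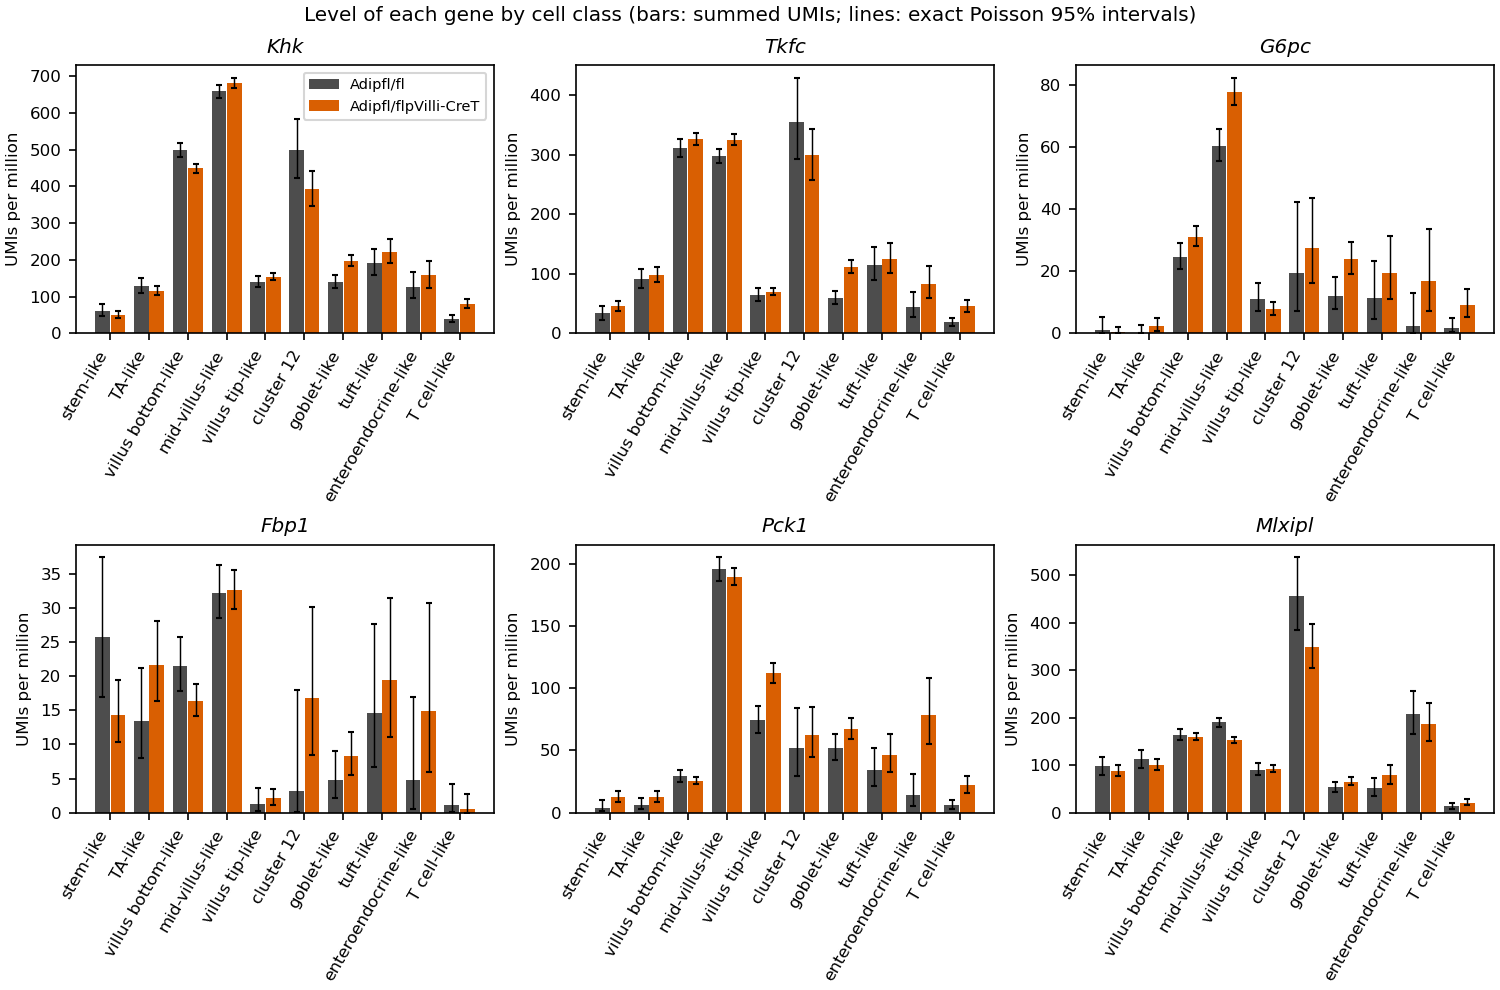
Level of each member in CPM by cell class in the control and Cre libraries, with bars for the summed UMIs and lines for exact Poisson 95% intervals, which cover counting error only. Khk reached 659 and 682 CPM in mid-villus-like cells, and Fbp1 was detected in stem-like cells at 25.7 and 14.4 CPM.

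Khk was higher at each step from the crypt to the mid-villus and low again at the tip. Its level in the control and Cre libraries was 62.0 and 51.0 CPM in stem-like cells, 129 and 116 CPM in TA-like cells, and 498 and 449 CPM in villus bottom-like cells. It was 659 and 682 CPM in mid-villus-like cells and 141 and 154 CPM in villus tip-like cells. As a class, mid-villus-like cells were therefore highest in both libraries, above villus bottom-like cells beyond counting error. The class was uneven, with 802 and 831 CPM in cluster 8. Cluster 0 had 363 and 343 CPM, below villus bottom-like cells. The tip could not be told from the goblet-like and TA-like levels by counting error in the control library, and it was 1.33-fold (1.17 to 1.51) above TA-like cells in the Cre library. The fold of mature villus over crypt was 5.48 (95% interval 4.81 to 6.26) in the control and 6.42 (5.84 to 7.07) in the Cre library. After thinning each cell to 2000 UMIs, 63.3% of control mid-villus-like cells (exact 95% interval 60.4 to 66.2) and 62.8% of Cre mid-villus-like cells held a Khk UMI. T cell-like cells, taken as the background, gave 8.48% and 6.11% on the same measure. The unthinned shares were 84.5% and 85.6% in mid-villus-like cells and 14.3% and 15.5% in T cell-like cells. Median depths before thinning were 4423 and 5458 UMIs for mid-villus-like cells and 4585 and 4025 for T cell-like cells. The stem-like share was 14% in the control and 8.94% in the Cre library. On the CPM scale crypt over T cell-like was 2.56 (1.95 to 3.41) in the control and 1.01 (0.842 to 1.22) in the Cre library. By CPM, crypt Khk was thus above the T cell-like level beyond counting error in the control library only.

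Between the libraries, Khk differed by little in enterocytes. Cre over control was 0.902 (0.861 to 0.945) in villus bottom-like cells, 1.04 (1.00 to 1.07) in mid-villus-like cells, 1.10 (0.969 to 1.24) in villus tip-like cells and 0.961 (0.931 to 0.991) in mature villus cells. In goblet-like cells it was 140 CPM in the control and 198 CPM in the Cre library, a fold of 1.42 (1.23 to 1.64). T cell-like cells gave 38.9 and 80.9 CPM, a fold of 2.08 (1.56 to 2.81). RNA of 12 mid-villus marker genes moved with the T cell-like values: it made up 0.322% of UMIs in control and 0.811% in Cre T cell-like cells. Khk was 12.1 and 9.97 UMIs per 1000 of those marker UMIs in T cell-like cells, beside 10.6 in control mid-villus-like cells and 11.9 in Cre ones. In crypt cells it was 47.1 in the control and 30.6 in the Cre library, above the T cell-like value in both. Without the 5% of T cell-like cells richest in that RNA, Khk was 29.1 and 43.2 CPM. In goblet-like cells the marker share was 1.17% in the control and 1.58% in the Cre library, and its part in the Khk values was not tested.

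Tkfc, which acts later in the same route, had a profile close to that of Khk, with its highest levels reached earlier. Its level was 33.4 and 45.2 CPM in stem-like cells of the control and Cre libraries, 91.1 and 98.6 CPM in TA-like cells, and 311 and 326 CPM in villus bottom-like cells. It was 298 and 325 CPM in mid-villus-like cells and 64.5 and 69.8 CPM in villus tip-like cells. Villus bottom and mid-villus could not be ordered by counting error, with a mid-villus over bottom fold of 0.958 in the control and 0.997 in the Cre library. The mature villus over crypt fold was 3.76 (3.20 to 4.45) in the control and 3.54 (3.19 to 3.94) in the Cre library, and mid-villus over tip was 4.63 and 4.66. Thinned to 2000 UMIs, 39.5% of control and 39.4% of Cre mid-villus-like cells held a Tkfc UMI, against 3.22% and 3.31% of T cell-like cells.

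Tkfc in mature villus cells was 247 CPM in the control and 249 CPM in the Cre library, a fold of 1.01 (0.961 to 1.05), and 1.09 (1.04 to 1.14) in mid-villus-like cells alone. Larger ratios were found outside the enterocytes. Goblet-like cells had 59.1 and 111 CPM, a fold of 1.88 (1.52 to 2.34), and T cell-like cells had 18.9 and 45.2 CPM, a fold of 2.40 (1.59 to 3.69). Enteroendocrine-like cells had a fold of 1.86 (1.05 to 3.40), while tuft-like cells had 1.09 (0.795 to 1.49) and crypt cells 1.07 (0.886 to 1.30). The share of mid-villus marker RNA was larger in the Cre library in each of these classes, at 1.48% and 1.79% in tuft-like and 0.212% and 0.267% in crypt cells, and its part in the Tkfc values was not tested. Among enterocyte clusters the Cre library was highest relative to control in cluster 2, a villus tip-like cluster, with 46.2 and 77.7 CPM and a fold of 1.68 (1.18 to 2.47).

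G6pc was almost absent from the crypt, with 1 UMI in control and 7 UMIs in Cre crypt cells. Its level was 24.6 and 31.2 CPM in villus bottom-like cells, 60.6 and 77.9 CPM in mid-villus-like cells, and 11.1 and 7.74 CPM in villus tip-like cells of the control and Cre libraries. The mature villus over crypt fold was 119 (21.2 to 4.7e+03) in the control library, an interval that wide because of the single crypt UMI, and 44.8 (21.7 to 112) in the Cre library. Mid-villus-like cells were the highest class in both libraries beyond counting error. With cells thinned to 2000 UMIs, 9.08% of control (7.45 to 10.9) and 10.2% of Cre mid-villus-like cells (8.79 to 11.7) held a G6pc UMI. In T cell-like cells 0 of 342 control cells did, which by the limit of 3 counts allows a share of up to 0.877%, and 1.27% of Cre cells did.

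G6pc was the member with the highest Cre over control ratio in the lower villus. The fold was 1.27 (1.04 to 1.56) in villus bottom-like cells and 1.29 (1.16 to 1.43) in mid-villus-like cells. In cluster 8, the mid-villus-like cluster nearest the villus bottom, the levels were 75.7 and 105 CPM, a fold of 1.38 (1.19 to 1.60). Higher up it was 0.870 in cluster 4, 1.06 (0.744 to 1.5) in cluster 0 and 0.602 in cluster 1, in cluster 3 it rested on 1 and 10 UMIs, and in all villus tip-like cells 0.698 (0.431 to 1.16). G6pc in T cell-like cells was 1.72 CPM from 3 UMIs in the control and 9.04 CPM from 18 UMIs in the Cre library. The Cre library was thus also higher in cells that should lack the gene, and the part of this in the enterocyte values was not tested.

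Fbp1 differed from the other enzymes in that its crypt level, 18.8 and 17.8 CPM, was close to its mature villus level, 25.5 and 23.4 CPM. Khk and Tkfc had higher crypt levels than Fbp1, at 99.6 and 81.7 CPM and 65.7 and 70.3 CPM. Fbp1 was not the highest enzyme in the crypt. By class Fbp1 was 25.7 and 14.4 CPM in stem-like cells of the control and Cre libraries, 13.4 and 21.6 CPM in TA-like cells, and 21.5 and 16.4 CPM in villus bottom-like cells. It was 32.2 and 32.6 CPM in mid-villus-like cells and 1.23 and 2.08 CPM in villus tip-like cells. Stem-like and mid-villus-like cells of the control library could not be ordered by counting error, and the tip was the lowest enterocyte class in both libraries. Crypt over T cell-like was 16.5 (4.30 to 140) in the control and 35.4 (6.21 to 1.41e+03) in the Cre library, so the crypt signal was above background even though it was small. T cell-like cells held 2 UMIs in the control and 1 UMI in the Cre library. The mid-villus over tip fold was 26.2 (8.87 to 128) in the control and 15.6 (9.23 to 28.8) in the Cre library, above the same ratio of each other member. In the Cre library the interval overlapped that of G6pc, at 10.1 (7.62 to 13.5). The control value of Fbp1 rests on 3 UMIs at the tip. Mature villus over crypt was 1.35 (0.984 to 1.90) and 1.32 (1.06 to 1.65). It was below 1 when the upper landmark bins replaced the mature villus classes, at 0.324 and 0.302, and when cells weighed equally, at 0.693 and 0.665, so its direction depends on how the cells are summed.

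Fbp1 had opposite ratios in the stem-like and TA-like classes. Cre over control was 0.559 (0.336 to 0.942) in stem-like cells and 1.61 (0.933 to 2.91) in TA-like cells, and the difference between these ratios was not tested. Summed over the crypt it was 0.944 (0.657 to 1.38). It was 0.763 (0.602 to 0.970) in villus bottom-like cells and 0.921 (0.795 to 1.07) in mature villus cells. Fbp1 UMIs were few. The stem-like and villus bottom-like intervals left out 1. Those of TA-like, crypt and mature villus cells held 1, and there a difference within the interval was not detectable at this depth.

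Pck1 differed from Khk and Tkfc in reaching its highest levels further up the villus. It was 3.81 and 12.7 CPM in stem-like cells, 5.97 and 12.4 CPM in TA-like cells, and 29.2 and 25.7 CPM in villus bottom-like cells of the control and Cre libraries. It then reached 196 and 190 CPM in mid-villus-like cells and was 74.3 and 112 CPM in villus tip-like cells. Mid-villus-like cells were highest in both libraries. Villus bottom over crypt was 5.81 (3.24 to 11.5) in the control and 2.05 (1.58 to 2.71) in the Cre library, and mid-villus over villus bottom was 6.71 and 7.37. Mature villus over crypt was 33.7 (19.3 to 65.4) and 13.3 (10.5 to 17.1). Thinned shares were 28.6% and 29.8% of mid-villus-like cells, against 0 of 342 control T cell-like cells, which allows up to 0.877% by the same limit, and 1.78% of Cre T cell-like cells. Crypt over T cell-like was 0.879 in the control and 0.567 in the Cre library, so crypt Pck1 was no higher than the T cell-like level. Per 1000 mid-villus marker UMIs, Pck1 was 2.37 and 4.69 in crypt cells, beside 1.78 and 2.73 in T cell-like cells.

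**Figure D2:**
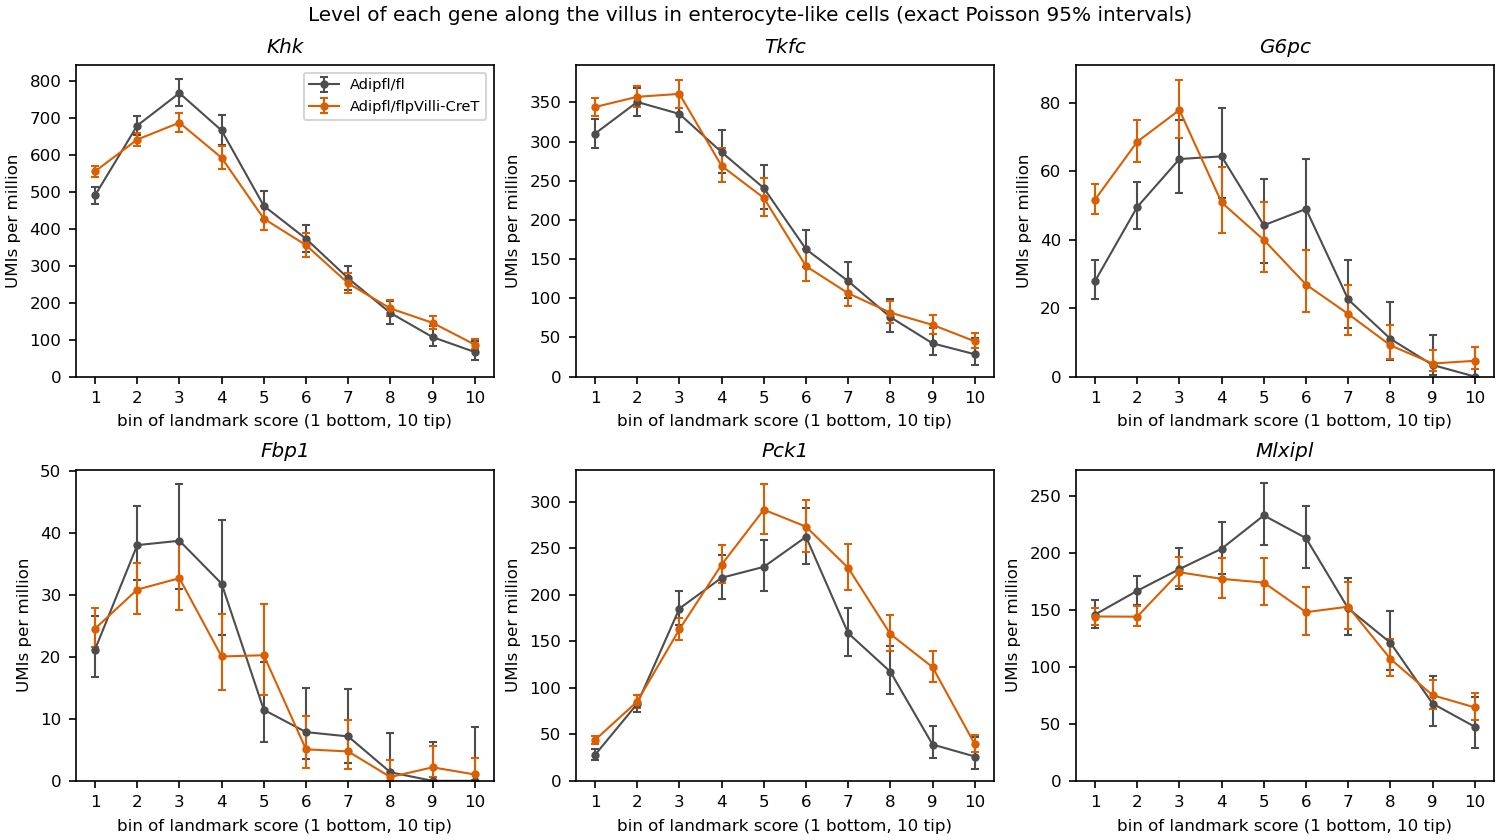
Level of each member in CPM across 10 bins of enterocyte-like cells ordered by the share of villus tip markers among tip and bottom marker UMIs, with exact Poisson 95% intervals. In the control library Tkfc peaked in bin 2, Khk in bin 3, and Pck1 in bin 6, with overlapping intervals for Tkfc in bin 3 and Pck1 in bin 5.

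Among the 4 members tested at 20 CPM or more in villus tip-like cells, Pck1 gave the one difference between libraries past 1.5-fold. Its fold of 1.51 (1.28 to 1.78) there compares with 3.19% of 4046 genes tested that were at least 1.5-fold higher in the Cre library, and 1.88% were at least 1.5-fold lower. Fbp1, below that minimum, had a fold of 1.69 (0.472 to 9.18) from 3 and 14 UMIs. Thinned to 2000 UMIs, 63 of 561 control tip-like cells (11.2%, interval 8.74 to 14.1) and 260 of 1618 Cre tip-like cells (16.1%, 14.3 to 18.0) held a Pck1 UMI. Median depths of the tip-like cells were 3749 and 3494 UMIs, and mitochondrial genes took 19.0% and 19.1% of their UMIs. Along the clusters of the villus the ratio changed direction. It was 0.849 (0.760 to 0.949) in cluster 8 and 0.878 (0.785 to 0.983) in cluster 7, with 153 and 130 CPM and 225 and 197 CPM, and these are the lower mid-villus clusters. It was 1.26 (1.09 to 1.45) in cluster 4, 1.25 (1.10 to 1.42) in cluster 0, 1.37 (1.13 to 1.67) in cluster 1 and 1.88 (1.32 to 2.74) in cluster 2. Summed over mature villus cells the ratio was 0.983 (0.929 to 1.04), with 169 and 166 CPM. In the control library 591 of 1777 mature villus cells were villus tip-like and in the Cre library 1728 of 3534, so the summed values weigh the classes differently.

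Outside the enterocytes Pck1 was 51.7 and 67.5 CPM in goblet-like cells and 5.72 and 22.1 CPM in T cell-like cells, the latter a fold of 3.87 (1.92 to 8.62). Per 1000 mid-villus marker UMIs, Pck1 in T cell-like cells was 1.78 in the control and 2.73 in the Cre library, beside 3.14 and 3.31 in mid-villus-like cells. In enteroendocrine-like cells it was 14.1 CPM from 6 UMIs and 78.8 CPM from 37 UMIs, and their mid-villus marker share was 0.789% in the control and 1.37% in the Cre library. When the T cell-like level was subtracted within each library, an alternative chosen after seeing the data, the Pck1 ratio in villus tip-like cells was 1.31. The same subtraction gave 0.721 for Khk in those cells, on the other side of 1 from its reported ratio of 1.10.

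Mlxipl, the regulator, was detected in all crypt and enterocyte classes, and rested on 1 and 4 UMIs in B or plasma-like cells. Its level was 97.2 and 88.0 CPM in stem-like cells, 112 and 101 CPM in TA-like cells, and 164 and 160 CPM in villus bottom-like cells of the control and Cre libraries. It was 190 and 153 CPM in mid-villus-like cells and 90.7 and 92.8 CPM in villus tip-like cells. Mature villus over crypt was 1.60 (1.40 to 1.83) in the control and 1.43 (1.31 to 1.58) in the Cre library. The crypt level was 8.02-fold that of T cell-like cells (5.23 to 12.9) in the control and 4.46-fold (3.25 to 6.26) in the Cre library, which places crypt Mlxipl above background. The highest level lay in cluster 12, at 456 and 349 CPM, where Mlxipl is among the leading genes. Enteroendocrine-like cells, a class of epithelial hormone cells, had 207 and 187 CPM. Counting error did not separate them from mid-villus-like cells in the control library (1.09, 0.869 to 1.35). The same held against villus bottom-like cells in the Cre library (1.17, 0.933 to 1.45). The mid-villus-like clusters 4 and 0 were higher than enteroendocrine-like cells, at 253 and 205 CPM and 246 and 191 CPM. Thinned shares were 32.7% and 29.4% of mid-villus-like cells and 28.3% and 38.9% of enteroendocrine-like cells, against 2.92% and 1.27% of T cell-like cells.

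Mlxipl was the member with the lowest Cre over control ratio in mature villus cells. The levels were 169 and 135 CPM, a fold of 0.799 (0.754 to 0.847), and 0.802 (0.753 to 0.855) in mid-villus-like cells. The difference lay in clusters 7, 4 and 0, with folds of 0.759 (0.671 to 0.860), 0.808 and 0.775. In cluster 8 the levels were 129 and 127 CPM, and in villus tip-like cells the fold was 1.02. Grouped by cluster, the lowest and highest parts of the mature villus were thus alike within counting error. Cluster 12 had a fold of 0.766 (0.618 to 0.952).

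**Figure D3:**
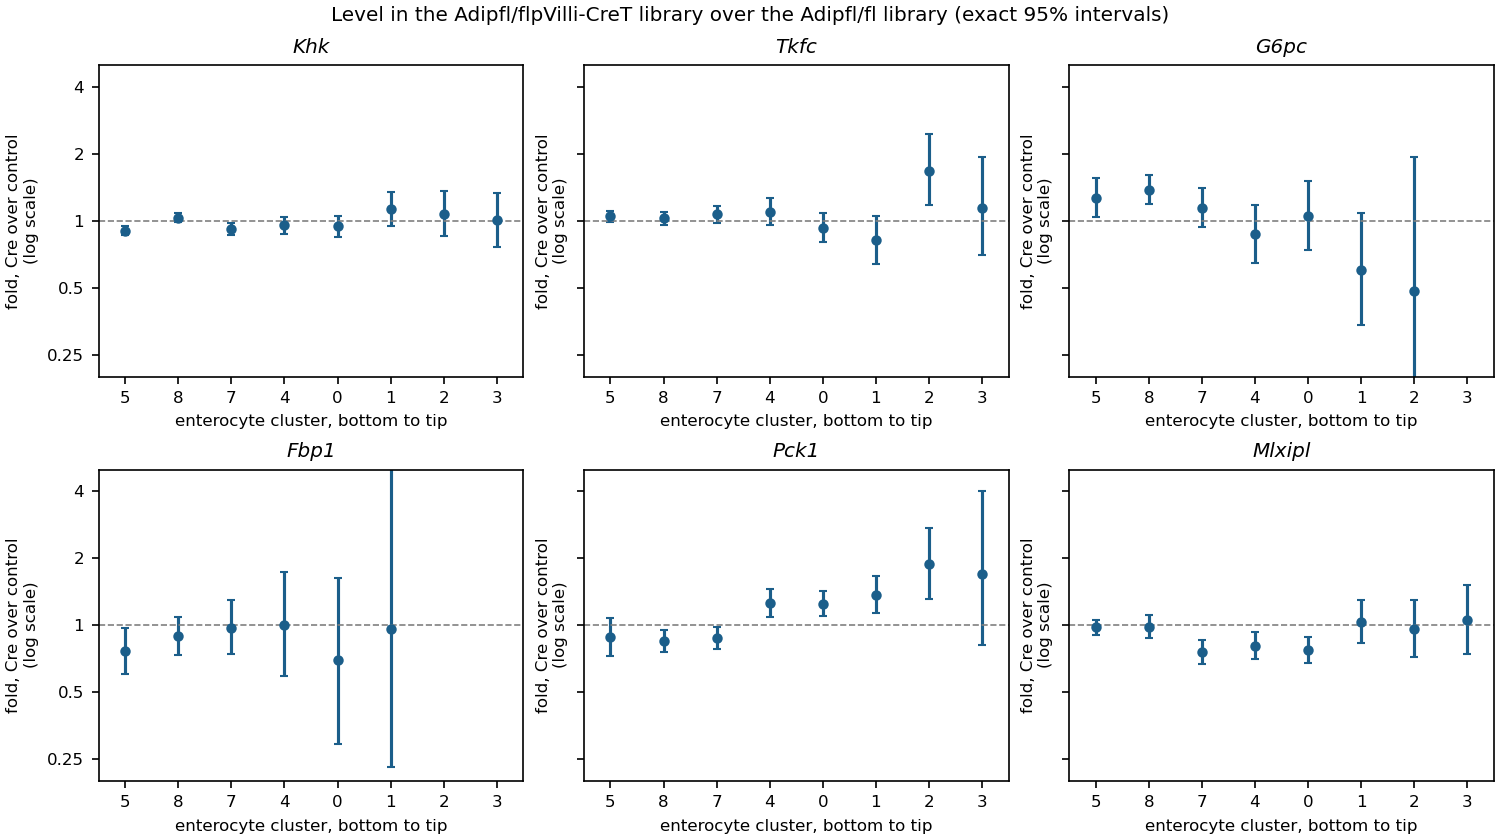
Ratio of CPM in the Cre library to that in the control library for each member in the enterocyte clusters from villus bottom (left) to tip (right), on a log axis, with exact 95% intervals of the ratio for clusters with at least 3 UMIs in both libraries. Pck1 moved from 0.849 in cluster 8 to 1.88 in cluster 2, and Mlxipl was lowest, at 0.759, in cluster 7.

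UMIs of the members were also found in epithelial classes other than enterocytes, and the part of enterocyte RNA in them was not tested. Per 1000 mid-villus marker UMIs, Khk was 11.95 and 12.59 in goblet-like and 13.01 and 12.44 in tuft-like cells (control and Cre). Mid-villus-like cells had 10.6 and 11.9. G6pc was 1.04 and 1.51 in goblet-like cells, beside 0.970 and 1.36 in mid-villus-like cells. Mlxipl in enteroendocrine-like cells was well above, at 26.3 and 13.6 beside 3.05 and 2.67. Tuft-like cells, chemosensory cells of the epithelium, had 192 CPM Khk in the control and 223 CPM in the Cre library, with 115 and 125 CPM Tkfc and 14.6 and 19.4 CPM Fbp1. The smaller tuft-like sub-cluster, of 10 and 23 cells, held 103 of the 119 control and 161 of the 184 Cre Khk UMIs. It also held 60 of the 71 control and 89 of the 103 Cre Tkfc UMIs. The larger sub-cluster, of 66 and 46 cells, had 39.8 and 62.3 CPM Khk and 27.3 and 37.9 CPM Tkfc. Cluster 12 had 498 and 392 CPM Khk, a ratio of 0.787 (0.642 to 0.968), and 356 and 299 CPM Tkfc, so both fructose enzymes were near their villus bottom-like levels there. G6pc in cluster 12 rested on 6 and 18 UMIs and Fbp1 on 1 and 11 UMIs. Goblet-like cells, the mucus cells, had 12.1 and 23.9 CPM G6pc, a ratio of 1.97 (1.23 to 3.26), and 53.3 and 65.3 CPM Mlxipl. Enteroendocrine-like cells had 127 and 158 CPM Khk, where 1 control cell held 24 of the 54 UMIs, and 44.8 and 83.1 CPM Tkfc. B or plasma-like cells had 119 and 57.5 CPM Khk from 30 and 15 UMIs, and G6pc and Fbp1 had 0 UMIs there in both libraries.

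A finer order along the villus came from a per-cell score, the share of villus tip markers among tip and bottom marker UMIs, which uses no member. The 5979 enterocyte-like cells that could be scored were placed in 10 bins, and cells near the border of neighbouring bins are not separable types. Khk in the control library was 491 CPM in bin 1, 768 CPM in bin 3 and 66.6 CPM in bin 10, and in the same bins of the Cre library it was 556, 688 and 86.6 CPM. Tkfc was highest in bin 2 of the control (351 CPM) and bin 3 of the Cre library (361 CPM). G6pc peaked in bin 4 of the control library at 64.3 CPM (52.3 to 78.3), beside 63.6 CPM (53.5 to 74.9) in bin 3, and in bin 3 of the Cre library at 77.9 CPM. Fbp1 peaked in bin 3 in both, at 38.8 and 32.7 CPM. The late member was Pck1, which peaked in bin 6 of the control library at 262 CPM and in bin 5 of the Cre library at 292 CPM. Mlxipl peaked in bin 5 of the control at 233 CPM and was flat over bins 3 to 5 of the Cre library, at 183, 178 and 174 CPM. In the control library the intervals of the highest bin and a neighbouring bin overlapped for Tkfc, G6pc, Fbp1, Pck1 and Mlxipl. A shift of a peak by 1 bin is therefore not resolved for these genes. Depth changed along the same bins, from medians of 20025 and 19256 UMIs per cell in bin 1 to 3468 and 3588 in bin 10, and the mitochondrial share went from 6.25% and 6% to 18.7% and 18.4%. The part of depth and mitochondrial share in these profiles was not tested.

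**Figure D4:**
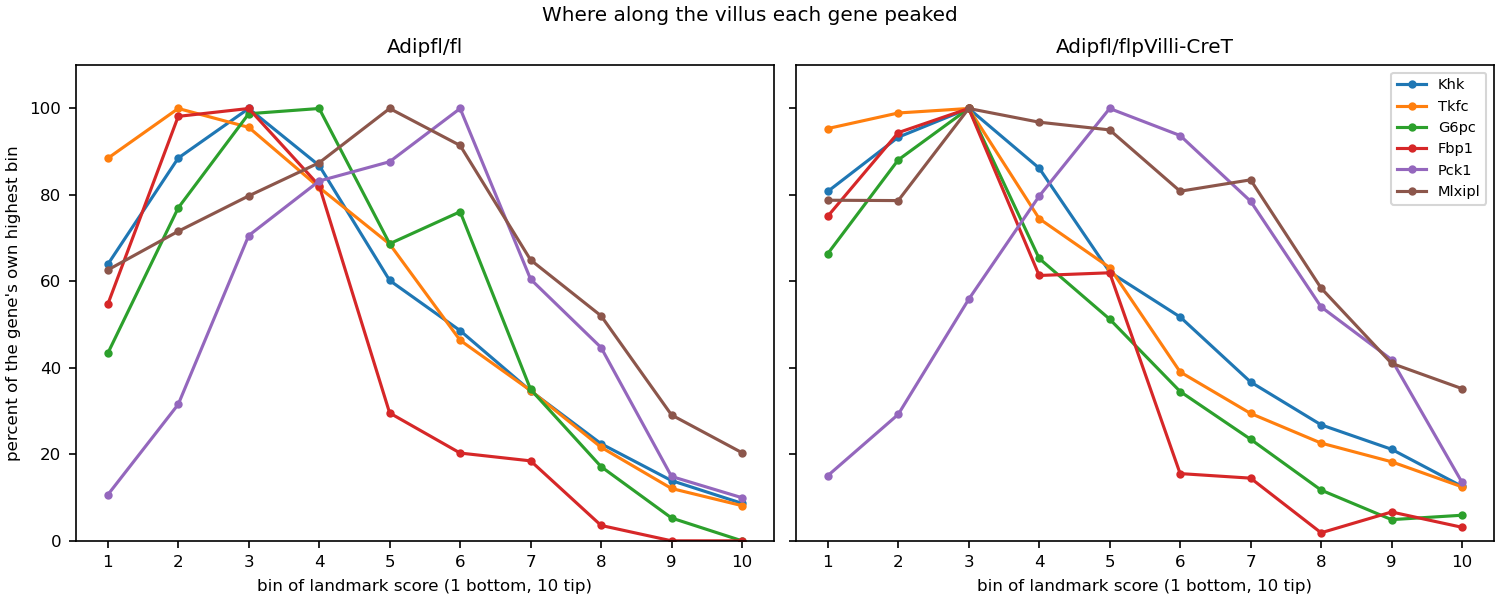
Level of each member in each landmark bin as a share of its own highest bin, so that the shapes of the 6 profiles can be set side by side in the control and Cre libraries. Bins run from villus bottom to tip, and the Pck1 and Mlxipl curves reach their highest points in bins 6 and 5 of the control library, after those of Khk, Tkfc, G6pc and Fbp1. In the Cre library Mlxipl is highest in bin 3, and neighbouring bins can overlap in counting error.

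The bins gave the ratios between libraries in a finer grouping of the same enterocyte-like cells. G6pc was 27.9 CPM in bin 1 of the control and 51.7 CPM in the Cre library, a fold of 1.85 (1.49 to 2.32), then 1.38 (1.18 to 1.64) in bin 2 and 1.23 (1.00 to 1.5) in bin 3. The ratio was 0.549 (0.352 to 0.847) in bin 6, on the other side of 1. Pck1 was 1.57 (1.26 to 1.98) in bin 1, 0.879 (0.777 to 0.995) in bin 3, 1.27 (1.09 to 1.48) in bin 5, 1.44 (1.19 to 1.76) in bin 7 and 3.13 (2.03 to 5.04) in bin 9, where the control library held 23 Pck1 UMIs. For Mlxipl the ratio was 0.864 (0.784 to 0.952) in bin 2 and 0.985 (0.874 to 1.11) in bin 3. Further up, the Mlxipl ratio was 0.747 (0.631 to 0.885) in bin 5 and 0.695 (0.574 to 0.840) in bin 6. Khk was 1.13 (1.07 to 1.2) in bin 1, 0.889 in bin 4 and 1.36 (1.03 to 1.82) in bin 9, and Tkfc was 1.56 (1.00 to 2.50) in bin 9. In villus bottom-like cells the ratio was 0.902 (0.861 to 0.945) for Khk and 0.882 (0.724 to 1.08) for Pck1. Both lay on the other side of 1 from bin 1, so the direction at the villus bottom depends on how the cells are grouped.

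The genes of the pathway, with the 6 members included, were listed by hand. Of 63 symbols 62 were found, the exception being the alias Pc for Pcx. The counts of the lists below therefore hold the members again, with Khk, Tkfc, G6pc and Pck1 among the genes higher in mature villus cells. In the list of fructose uptake and breakdown, 6 of 7 genes were at least 2-fold higher in mature villus than in crypt cells in both libraries and 1 of 7 was lower. Over all genes tested, 17.8% (control) and 17.9% (Cre) were higher and 41.9% and 42.4% lower. The fructose transporter Slc2a5 was 46.8 CPM in control and 57.2 CPM in Cre mature villus cells. That was 16-fold (7.70 to 39.9) and 13.7-fold (9.09 to 21.7) above the crypt, where it had 7 and 23 UMIs. Slc2a2, the basolateral transporter of glucose and fructose, was 263 and 389 CPM. That was 126-fold (53.9 to 388) and 48.8-fold (36.3 to 67.1) above the crypt, where it had 5 and 44 UMIs. The gene of this list that was lower was Akr1b3, an aldose reductase, at 35.6 and 40.7 CPM in crypt and 1.61 and 1.74 CPM in mature villus cells.

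In the gluconeogenesis list 6 of 14 genes tested were at least 2-fold higher and 3 lower in the control library, and 7 and 3 of 15 in the Cre library. The shares over all genes were 17.8% and 17.9% higher and 41.9% and 42.4% lower. Of the paralogs of the members, Pck2 and G6pc3 were lower in mature villus than in crypt cells and Fbp2 was higher. Pck2, the mitochondrial carboxykinase, was 35.6 and 28.7 CPM in crypt and 1.26 and 1.34 CPM in mature villus cells. G6pc3, the ubiquitous phosphatase subunit, was 27.6 and 34.3 CPM in crypt and 3.32 and 3.43 CPM in mature villus cells. Fbp2, the second fructose-bisphosphatase gene, was 398 and 340 CPM in mature villus cells, 1.88- and 1.90-fold above the crypt, beside 25.5 and 23.4 CPM for Fbp1. Slc37a4, which carries glucose-6-phosphate to the phosphatase, was 3.13- and 2.52-fold above the crypt, and Pcx, the carboxylase that feeds Pck1, was 18.5 and 20.7 CPM and 4.90- and 7.60-fold above. Slc2a2 was 4.0 CPM in control and 63.8 CPM in Cre T cell-like cells, a further value that moved with the library.

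Glycolysis had 6 of 14 genes higher and 3 lower in the control library, and 6 and 2 of 14 in the Cre library. For these and the following lists, the shares over all genes were 17.8% and 17.9% higher and 41.9% and 42.4% lower. Pklr, the liver-type pyruvate kinase and a known ChREBP target, was 144 and 155 CPM in mature villus cells and 4.98- and 6.65-fold above the crypt. The list of ChREBP and its targets had 3 of 11 genes higher and 5 of 11 lower in both libraries, the latter close to the 41.9% and 42.4% of all genes that were lower. The genes lower were Mlxip, a paralog of Mlxipl, and the fat synthesis genes Fasn, Acaca, Acly and Elovl6. Regulators of gluconeogenic genes had 1 of 8 higher in both libraries, the coactivator Ppargc1a, and 3 lower in the control and 1 in the Cre library. Over all lists, 20 of 52 genes tested were at least 2-fold higher and 15 lower in the control library, and 21 and 12 of 53 in the Cre library. The median log2 ratio of mature villus over crypt was 0.55 for the list and -0.66 for all genes in the control library, and 0.49 and -0.66 in the Cre library.

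**Figure D5:**
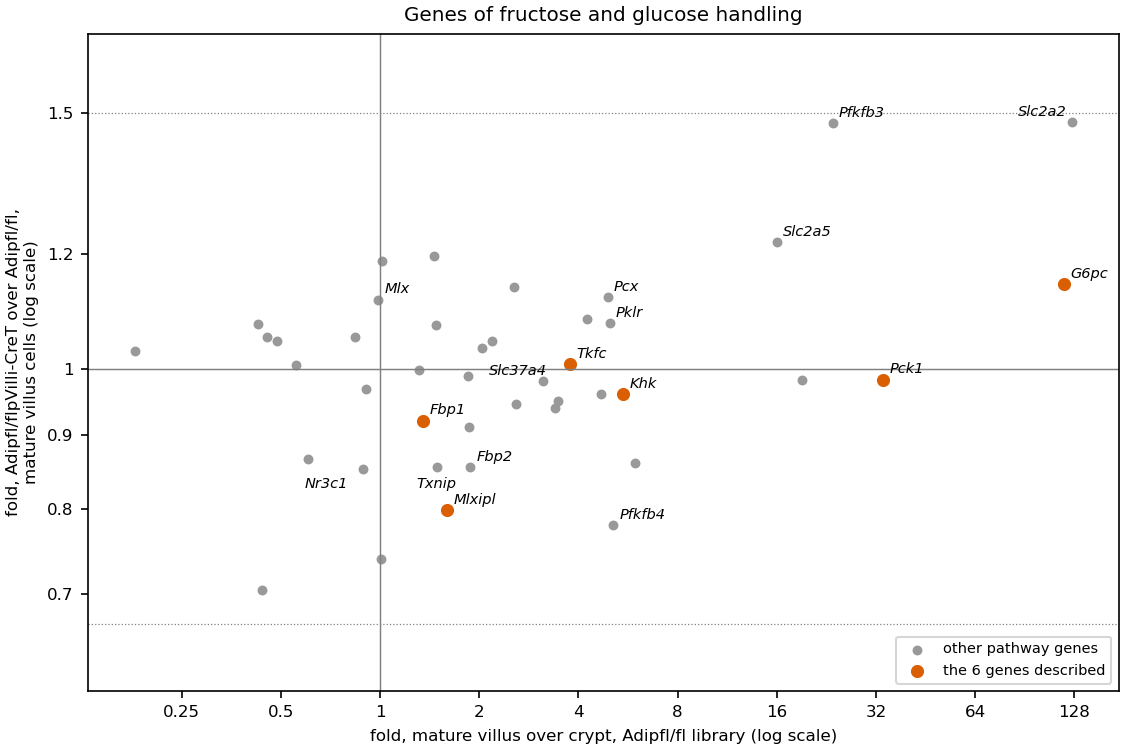
Genes of the pathway lists tested in mature villus cells, by the fold of mature villus over crypt in the control library (horizontal, log scale) and the fold of Cre over control in mature villus cells (vertical, log scale, dotted lines at 1.5-fold either way), with the 6 members in orange. Every point lies between the dotted lines, with Slc2a2 at 126 (from 5 crypt UMIs) and 1.48 and Mlxipl at 1.60 and 0.799.

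Between the genotypes, no listed gene of 43 tested in mature villus cells was at least 1.5-fold higher or lower in the Cre library, where 1.22% of 5089 genes were higher and 0.924% were lower. Slc2a2 had a fold of 1.48 (1.42 to 1.54), Pfkfb3, an enzyme that makes an activator of phosphofructokinase, 1.48 (1.36 to 1.60), and Slc2a5 1.22 (1.10 to 1.36), the 3 highest ratios among 35 list genes at 50 CPM or more. The 3 lowest were Pfkfb4, another such enzyme, at 0.780 (0.731 to 0.833), Mlxipl at 0.799 and Nr3c1, the glucocorticoid receptor, at 0.853 (0.801 to 0.907). Mlx, the partner of ChREBP, was 125 and 140 CPM, and Txnip, a target that responds to glucose, was 312 and 267 CPM with a fold of 0.856 (0.821 to 0.893). In villus tip-like cells 4 of 37 listed genes were at least 1.5-fold higher, namely Slc2a2, Pck1, Hk2 and Pfkfb3, and 2 were lower, Txnip (268 and 163 CPM) and Cebpa. Of all 4046 genes tested there, 3.19% were higher and 1.88% lower. The 4 higher genes were also higher in T cell-like cells of the Cre library. Pck1 was 5.72 CPM in control and 22.1 CPM in Cre T cell-like cells. Hk2 was 5.72 and 13.1 CPM there, and Pfkfb3 13.1 and 34.2 CPM. Slc2a2 was 63.8 CPM in Cre T cell-like cells, above its 37.2 CPM in Cre villus tip-like cells. Apart from the subtraction given above for Pck1, the part of this in the villus tip-like values was not tested.

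Genes with profiles most like each member were ranked by the Pearson correlation of log2(CPM + 1) over 20 points, 10 classes in each of 2 libraries, among 6952 genes. The points share libraries and depth, and the values are descriptive. Khk was closest to Nat8f4 (0.954), Adipor2 (0.946) and Crat (0.942), and Tkfc to Ogdh (0.973), Bco2 (0.971) and Stx12 (0.967). G6pc was closest to Leap2 (0.951), Slc43a2 (0.947) and Slc5a1 (0.945), and Fbp1 to Cd302 (0.943), Gdpd1 (0.939) and Clptm1 (0.939). Pck1 was closest to Sectm1b (0.964), Fabp2 (0.946) and Cgref1 (0.946), and Mlxipl to Nckap1 (0.955), Rhou (0.954) and Tm4sf20 (0.952). Among the members, Khk and Tkfc had 0.885, G6pc and Khk 0.825, G6pc and Pck1 0.822, and Fbp1 and Pck1 0.341.

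The members were also read in barcodes that the mitochondrial limit removed, 4670 in the control and 4263 in the Cre library. Per 1000000 non-mitochondrial UMIs, Mlxipl was 386 in removed barcodes and 198 in kept mature villus cells of the control library, and 257 and 157 in the Cre library. Pck1 was 268 and 199 in the control and 262 and 194 in the Cre library, so both genes were higher in the removed barcodes. Fbp1 was lower there, at 8.45 and 29.9 in the control and 7.66 and 27.3 in the Cre library. The duodenal and jejunal transcription factor Gata4 was 61.6 and 62.2 CPM in mature villus cells and the ileal bile acid binding gene Fabp6 was 0.448 and 0.490 CPM from 5 and 11 UMIs. Other region markers differed between the libraries, with a Cre over control ratio of 0.826 (0.806 to 0.846) for the proximal marker Lct, 0.354 (0.259 to 0.481) for the distal marker Fgf15, and 1.17 (1.12 to 1.22) and 1.25 (1.19 to 1.32) for the distal markers Slc51a and Slc51b. The part of region in the member values was not tested. Without mature villus cells that held a Fabp6 or Slc10a2 UMI, the Pck1 ratio in villus tip-like cells was 1.46 and the Mlxipl ratio in mature villus cells 0.794.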

How the data were processed

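Single-cell suspensions of small intestinal epithelium from Adipfl/fl and Adipfl/flpVilli-CreT mice were each sequenced as 1 library with droplet 3′ chemistry. The authors converted reads with bcl2fastq 5.0.1 and counted UMIs with Cell Ranger (7.1.0 per the file header) against mm10, and deposited raw UMI counts per gene and barcode, with no normalization and before any quality filter. Genes were matched by symbol in those tables.

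Barcodes with more than 500 genes and under 25% UMIs from mt- genes were kept (25687687 and 48895126 UMIs). Seurat 5.3.0 under R 4.3.3 was run with LogNormalize (scale factor 10000), 2000 variable genes without the pathway genes, the first 20 principal components and Louvain clusters at a resolution of 0.8, and crypt clusters were split again at 0.4. A cluster was named from at least 3 markers that were 2-fold higher there with at least 10 UMIs. Doublets were not removed, because Scrublet (scanpy 1.11.5) called 3 and 2 cells. CPM, exact Poisson, ratio and Clopper-Pearson 95% intervals were computed in Python 3.11.15 with numpy 2.4.6, scipy 1.17.1 and pandas 2.3.3, plots were drawn with matplotlib 3.10.9, and the calculation was tested on simulated counts. With 1 library per genotype no test was run.

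Named genes were the 6 members, fixed pathway genes, the 3 largest rises and falls of the pathway lists in mature villus cells at 50 CPM or more, and the 3 genes closest in profile to each member. A gene that this rule selects is not reported here. Hk2, Cebpa, Akr1b3, Ppargc1a, Mlxip, Fasn, Acaca, Acly and Elovl6 were named after their values were seen. The members and lists were chosen with earlier results of these data known. Alternatives changed the denominator, scaling, filters, mitochondrial gene set, resolution, components, variable genes, doublets, the naming of cells, the weight of cells, the region markers, the minimum level and the single highest cell.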

Additional observations from a re-analysis of the deposited data

Results flagged for a closer look

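Khk had ratios of the Cre to the control library on opposite sides of 1 in different cell classes, each with a counting interval that left out 1. The ratio was 1.04 in mid-villus-like, 1.42 in goblet-like and 2.08 in T cell-like cells, and 0.902 in villus bottom-like and 0.481 in B or plasma-like cells. The difference between these ratios was not tested.

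Pck1 had ratios on opposite sides of 1 along the enterocyte clusters, again with intervals that left out 1. The ratio was 0.849 in cluster 8 and 0.878 in cluster 7, and 1.26 in cluster 4, 1.25 in cluster 0, 1.37 in cluster 1 and 1.88 in cluster 2. The difference between these ratios was not tested, and each genotype is 1 library of pooled mice.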

How the results depend on the processing

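No paired analysis was possible because each genotype has 1 library and no result comes from a test. For the same reason no replicate could be left out, and genotype cannot be told apart from library. Of 364 recomputed member ratios between libraries, 315 stayed within the counting interval. Ratios whose reported interval held 1 could change side of 1. Tkfc in mature villus cells kept its direction in 9 of 15 alternatives and Mlxipl in villus tip-like cells in 8 of 16. Among ratios whose reported interval left out 1, 5 recomputed values changed side. Khk was 0.985 in mid-villus-like cells at a mitochondrial limit of 10% and 1.05 in mature villus cells with the mitochondrial share taken from the 13 protein-coding genes. G6pc in mature villus cells was 0.999 with more than 1000 genes, 0.573 with landmark bins in place of classes and 0.937 when cells weighed equally. Of 156 recomputed ratios along the axis 150 kept their direction, and Fbp1 in the Cre library was 0.302 with landmark bins and 0.665 when cells weighed equally.

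The count of pathway genes higher in mature villus cells was 12 in the Cre library with landmark bins, against 21 of 53 as reported. The count at least 1.5-fold higher in the Cre library, 0 as reported, was 2 with the 13 protein-coding genes, with landmark bins and with equal weight of cells, and 1 with more than 1000 genes, with the highest 8% of Scrublet scores removed and with no minimum level. The count at least 1.5-fold lower, also 0, was 3 with landmark bins, 2 at the limit of 10% and with no minimum level, and 1 with 30 principal components and with equal weight of cells. The cause of these moves was not tested, and the share of all genes under each alternative is not given here. The Pck1 ratio in villus tip-like cells ranged from 1.31 to 1.98, and the Mlxipl ratio in mature villus cells from 0.715 to 0.924. Low counts limit Fbp1 and G6pc at the tip, where the ratios ranged from 0.430 to 5.39 and from 0.462 to 2.58.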
